A study of Sus scrofa with 35 samples.

Results

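The genes that carry iron into blood cells, store it and recycle it were followed in whole blood of pigs kept in thermoneutral (TN) conditions or under heat stress (HS). The members were 10 genes, chosen by name: TFRC, STEAP3 and SLC11A2 for uptake, FTH1 and FTL for storage, SLC11A1, HMOX1 and SLC40A1 for recycling and export, and ACO1 and IREB2 as regulators. The choice was made with earlier results of these data known. A spot of the array belonged to a member when the gene name in the scanner files, read without regard to case, was that symbol. Of the 60306 spots that were not controls, 35 met this rule, and 33 of these, from 9 of the 10 genes, were rows of the deposited log2 table, which holds 39072 rows.

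Blood RNA came from 35 castrated male growing pigs, with 1 one-colour Agilent array for each pig, and the labels give 6 groups from 3 breeds and 2 climates. CR stands for Creole pigs, LW for Large White pigs and F1 for their cross. Each breed had 6 TN and 6 HS pigs, except CR, with 5 TN pigs, so that 17 TN pigs were set against 18 HS pigs. TN pigs were held at 24 °C and slaughtered before the climatic room was warmed. HS pigs carry the label 30 °C, whereas the protocol text gives 32 °C for 5 d, so the groups are named by climate and not by temperature. Neither pens, parents nor slaughter days are in the labels. The study's methods state that TN and HS pigs were slaughtered on different days, with littermates spread over pens, so climate and day of slaughter cannot be told apart here, and p-values treat the pigs as independent.

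Iron circulates in plasma bound to transferrin, which red cell precursors take up through the transferrin receptor in order to build haem. Iron that is not used is kept inside ferritin, and macrophages regain iron from the haem of old red cells. In most cells, IRP1 (encoded by ACO1) and IRP2 (IREB2) bind hairpins in the mRNA of the receptor and of ferritin and set how much of each protein is made, so that mRNA and protein levels of these genes need not move together.

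Values are log2 intensities after quantile normalization by the authors. A probe is a 60-base oligonucleotide, and the lead probe of a gene is the one with the highest mean over all arrays. Probe brightness depends on the oligonucleotide as well as on the amount of RNA, so levels of different probes were not compared as amounts of RNA. The probes were not of equal reach. SLC40A1, the ferroportin gene, whose product is the exporter of cellular iron, had 1 probe, O9278, which was well above background on 0 of 35 arrays (raw median intensity 29.0 to 41.5). It is not in the log2 table, and no level is given. A second STEAP3 probe was likewise above background on 0 arrays. FTH1 had 11 probes, of which 8 shared a run of at least 15 bases with another FTH1 probe, so these are repeated readings of the same stretches.

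The probe sequences are shown for the genes in which probes of 1 gene gave different readings, since the sequence says what each spot can read. Both FTL probes cover the same 44 bases on opposite strands (capitals). In A_72_P050477 the reading frame from the first base meets its stop codon at bases 34 to 36, and O14325 is its reverse complement over the shared stretch.
FTL A_72_P050477: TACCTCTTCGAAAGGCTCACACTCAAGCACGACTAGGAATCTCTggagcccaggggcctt
FTL O14325: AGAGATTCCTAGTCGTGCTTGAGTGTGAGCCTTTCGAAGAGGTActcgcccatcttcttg

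One of the 3 TFRC probes, A_72_P035411, spans the end of a reading frame, with the stop codon at bases 37 to 39 (capitals up to the stop). For the lead probe A_72_P299604 the first 30 bases are given.
TFRC A_72_P035411: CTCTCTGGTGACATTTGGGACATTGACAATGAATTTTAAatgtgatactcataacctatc
TFRC A_72_P299604: atgcccttataactgtatacaagctggtat

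ACO1 and IREB2 are related genes. Laid side by side without gaps, ACO1 probe O8033 and IREB2 probe A_72_P565069 had the same base at 25 of 45 positions (55.6%, capitals), and their longest identical run was 6 bases. Both had frames without a stop codon, whereas the ACO1 lead probe A_72_P229892, of which the first 30 bases are given, had a stop codon in every frame of its printed strand.
ACO1 O8033: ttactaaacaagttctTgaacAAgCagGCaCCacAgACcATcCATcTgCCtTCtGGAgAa
IREB2 A_72_P565069: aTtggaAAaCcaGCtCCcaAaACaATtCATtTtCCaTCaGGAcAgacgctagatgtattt
ACO1 A_72_P229892: cgagaacattgtttgaagggggttttggag

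HS was set against TN across the breeds. Of the 33 member probes, 3 were higher in HS pigs past the threshold (adjusted p under 0.05, limma, Benjamini-Hochberg over all 39072 rows) and 2 were lower, while 20.1% of all rows were higher and 14.7% lower. These counts depended on the processing. With the processed intensity scaled to the 75th percentile of each array, 11 were lower, of which 8 were FTH1 probes. In that fit 14023 of all 39072 rows passed, 7609 of them higher. With array weights, 5 were higher and 7 lower, and 17120 of all rows passed, 10237 of them higher. Leaving out 1 pig at a time gave 0 to 6 lower, with 11594 to 16429 of all rows passing. The 3 higher and 2 lower probes were the lead probe and a second probe of SLC11A1, both higher, the lead probe of TFRC, lower, and both probes of ACO1, in opposite directions. The median difference over the 33 probes was -0.07 on the log2 scale, beside 0.06 over all rows. FTH1 gave 11 of these probes, so it weighs most in that median. Over the 9 lead probes, 1 per gene, the median was 0.01, beside 0.06 over the lead rows of all gene symbols. Red cell genes were counted in the same fit, from a list chosen with earlier results of these data known. Of 26 erythroid markers listed, 15 were in the table, and 6 of these were lower and 1 higher in HS pigs, with a median difference of -0.54. In whole blood, fewer cells of a type and less RNA per cell cannot be told apart.

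**Figure D1:**
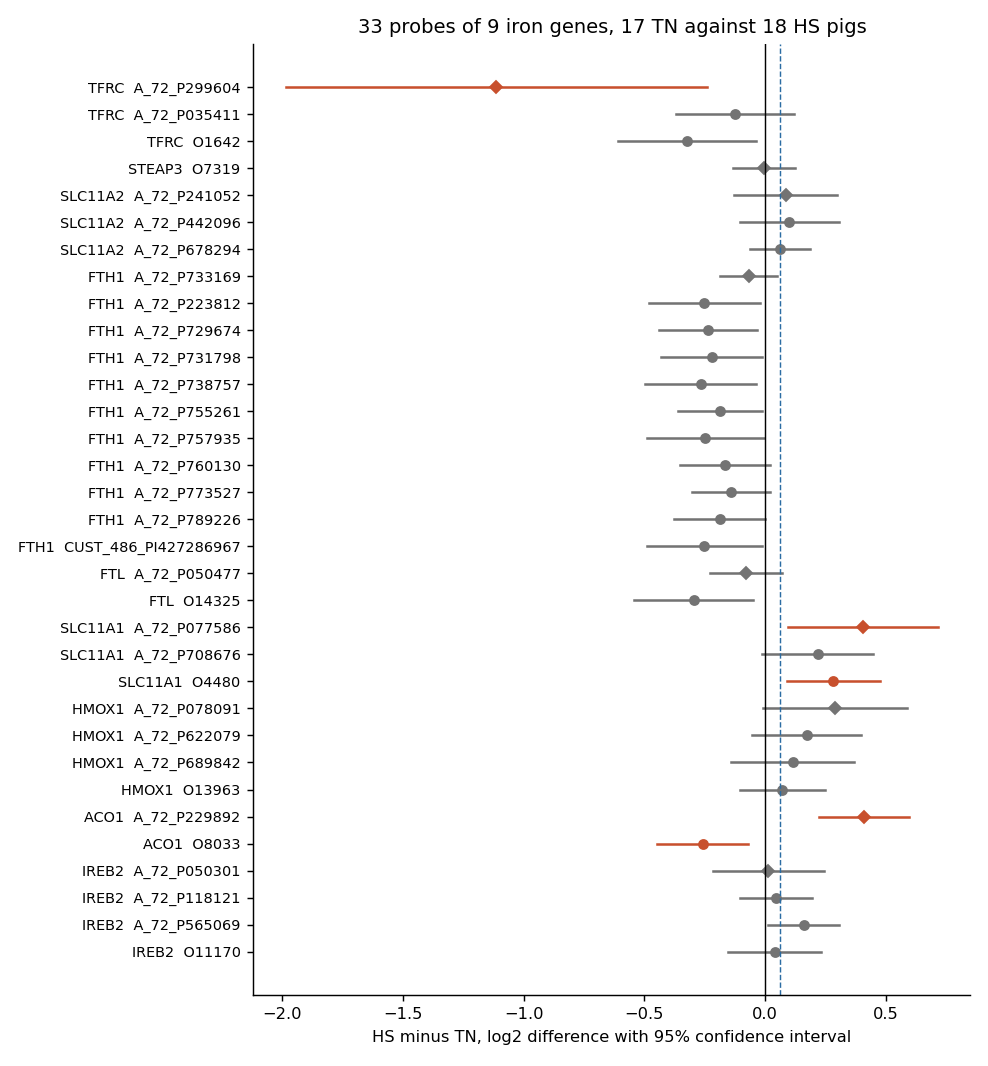
HS minus TN difference (log2) of each of the 33 member probes, with its 95% confidence interval from limma, over 17 TN and 18 HS pigs. Diamonds are lead probes, red marks an adjusted p under 0.05, and the dashed line is the median of all rows (0.06); the TFRC lead probe stands lowest, at -1.11, and the ACO1 lead probe highest, at 0.41.

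TFRC, the receptor that takes up transferrin-bound iron, varied most of all members between pigs. In CR TN pigs its lead probe read 9.17, 9.69, 9.87, 10.98 and 11.90. In CR HS pigs it ran from 7.74 (lowest) through 8.41 (median) to 11.17 (highest). The CR groups overlapped, with both of the highest HS pigs inside the TN range. In F1 TN pigs the values ran from 7.69 through 9.90 to 13.16, and in F1 HS pigs from 7.67 through 9.12 to 9.93. The F1 TN group was the widest, with the highest of all 35 pigs beside pigs at 7.69 and 7.83. In LW TN pigs the values ran from 8.76 through 9.95 to 11.46, and in LW HS pigs from 7.18 through 8.91 to 11.00. Of the 18 HS pigs, 15 lay below the TN mean of their breed (4 of 6 CR, 6 of 6 F1 and 5 of 6 LW pigs).

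The TFRC lead probe fell by 1.11 on the log2 scale in HS pigs (SE 0.43, adjusted p = 0.0422, limma), a 2.16-fold lower level. The highest and lowest pigs were 63.1-fold apart, and the spread within groups (SD 1.39, log2) was wider than that of 99.7% of all rows. The call was near the threshold: leaving out 1 pig at a time gave -1.26 to -0.91 (adjusted p 0.0208 to 0.0779, limma). The difference missed the threshold, with an adjusted p above 0.05, for 20 of the 35 pigs left out. With the mean of the 15 erythroid genes as a covariate the difference was -0.25 (adjusted p = 0.741, limma), in a fit that called 1 of all 39072 rows. The other TFRC probes were dim. A_72_P035411 was well above background on 23 arrays and O1642 on 12, and their differences were -0.12 (adjusted p = 0.434) and -0.32 (adjusted p = 0.0709, limma). With the scanner's processed intensity, from which background is subtracted, scaled to the 75th percentile of each array in place of the quantile-normalized median intensity, O1642 fell by 1.08 (adjusted p = 0.0157) and the lead probe by 1.13 (adjusted p = 0.0448, limma). Over the 35 pigs, the lead probe correlated with A_72_P035411 (r = 0.73) more closely than with O1642 (r = 0.36).

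**Figure D2:**
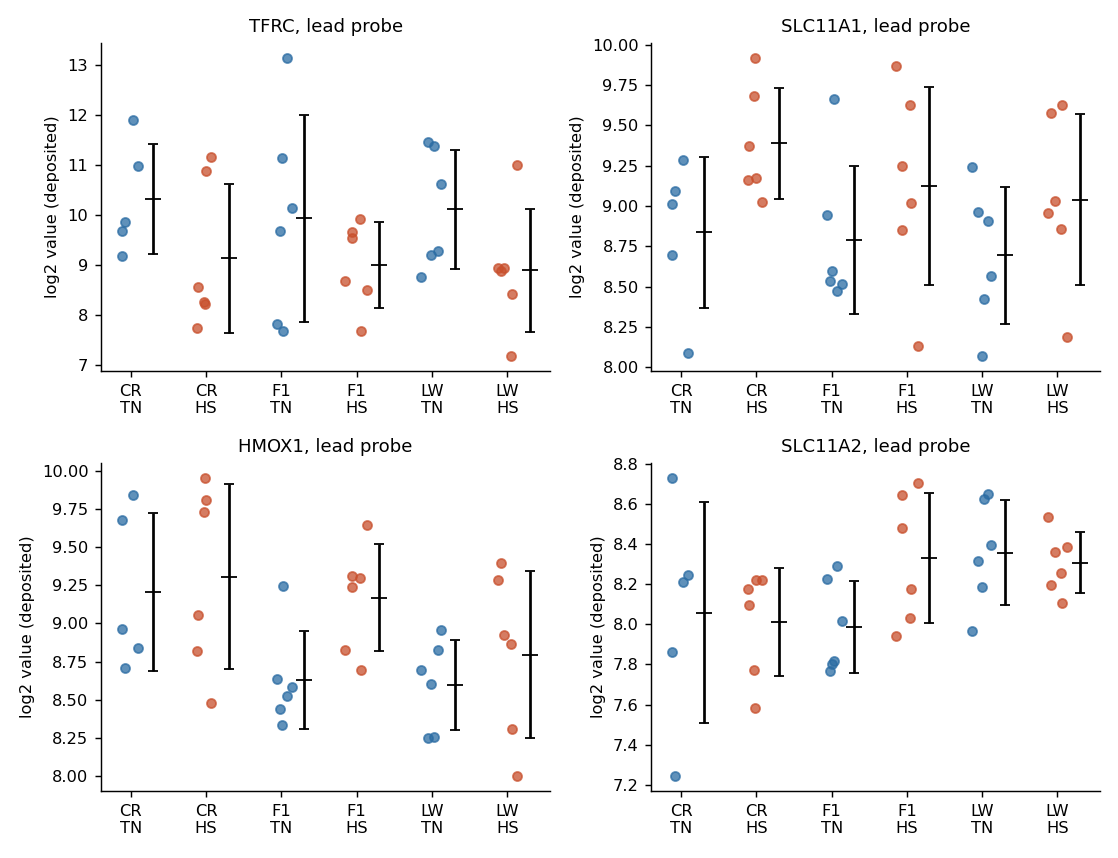
Deposited log2 values of the lead probes of TFRC, SLC11A1, HMOX1 and SLC11A2 for each pig (points; blue TN, red HS), with the mean and SD of each group beside them. Each panel has its own vertical scale, and in TFRC the F1 TN pigs span 7.69 to 13.16.

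STEAP3 reduces the iron released from transferrin inside red cell precursors, and SLC11A2 (DMT1) carries it out of the endosome into the cytoplasm. The STEAP3 probe O7319 was dim and flat, with group means between 5.39 ± 0.17 (SD, n = 6, F1 HS) and 5.50 ± 0.19 (SD, n = 6, CR HS). Its HS minus TN difference was 0.00, with a 95% interval of -0.13 to 0.13. The 3 SLC11A2 probes differed by 0.06 to 0.10 (adjusted p 0.444 to 0.539, limma). One of them, A_72_P678294, was dim, well above background on 10 of 35 arrays. The SLC11A2 lead probe had an interval of -0.13 to 0.30. Its F1 TN mean was 7.99 ± 0.23 against 8.33 ± 0.32 in F1 HS pigs, while HS minus TN was -0.05 in CR and -0.05 in LW pigs (SD, n = 6). The F1 difference of 0.34 did not pass the threshold (adjusted p = 0.119, limma).

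The lead probes of both ferritin genes were among the brightest spots on the array. Their places describe the spots, since brightness depends on the oligonucleotide as well as on the RNA. By raw intensity, the lead probe of FTH1, the heavy chain, which oxidizes iron on entry, took place 6 to 52 among the 60306 spots, and that of FTL, the light chain, place 6 to 60. All 11 FTH1 probes were lower in HS pigs (-0.27 to -0.07), yet 0 passed the threshold (adjusted p 0.0625 to 0.363, limma). They were below 0 in each breed taken alone as well, in F1 pigs from -0.47 to -0.09. These probes carry 1 gene name and correlated at 0.78 to 0.98 over the pigs, and they were not placed on transcripts. Group means of the FTH1 lead probe lay within 18.33 ± 0.31 (F1 HS) and 18.49 ± 0.10 (CR TN, n = 5), and those of the FTL lead probe within 18.23 ± 0.22 (F1 HS) and 18.39 ± 0.19 (F1 TN, SD, n = 6). The FTL lead probe differed by -0.08 (SE 0.07, adjusted p = 0.399) and the opposite-strand probe O14325 by -0.30 (SE 0.12, adjusted p = 0.0558, limma).

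The ferritin calls depended on how the arrays were processed. Quantile normalization gives every array the same set of values, with 19.01 as the top of all columns, so a probe near the top moves only as it changes place with its neighbours. With the processed intensity scaled to the 75th percentile of each array, the FTH1 probes differed by -0.46 to -0.33, and 8 of 11 fell past the threshold (adjusted p 0.0350 to 0.0643 over the 11 probes, limma). The FTL lead probe then differed by -0.36 (adjusted p = 0.0845). This setting changes both the intensity used and the scaling, so their parts cannot be told apart here, and the median of all rows went from 0.06 to 0.08. In F1 pigs the FTH1 lead probe stood at 11.24 ± 0.27 above the percentile in TN and 10.41 ± 0.52 in HS pigs (log2, SD, n = 6). In LW pigs the means were 10.79 ± 0.30 and 10.77 ± 0.29. The 75th percentile itself had its lowest mean in F1 TN pigs (149.9 ± 28.3, processed intensity, SD, n = 6), beside 237.9 ± 35.6 in F1 HS pigs. For CR it was 227.8 ± 66.5 under TN (n = 5) and 224.7 ± 54.6 under HS, and for LW 203.7 ± 30.9 under TN and 202.1 ± 29.6 under HS (n = 6). Its part in the ferritin values was not tested. With the erythroid mean as a covariate, the lead probes of FTH1 and FTL differed by 0.01 and 0.03. Of the 11 FTH1 probes, 10 stayed below 0 (median -0.08, lowest -0.10), and FTL O14325 was at -0.05. Among these probes 0 passed, in a fit that called 1 of all 39072 rows.

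**Figure D3:**
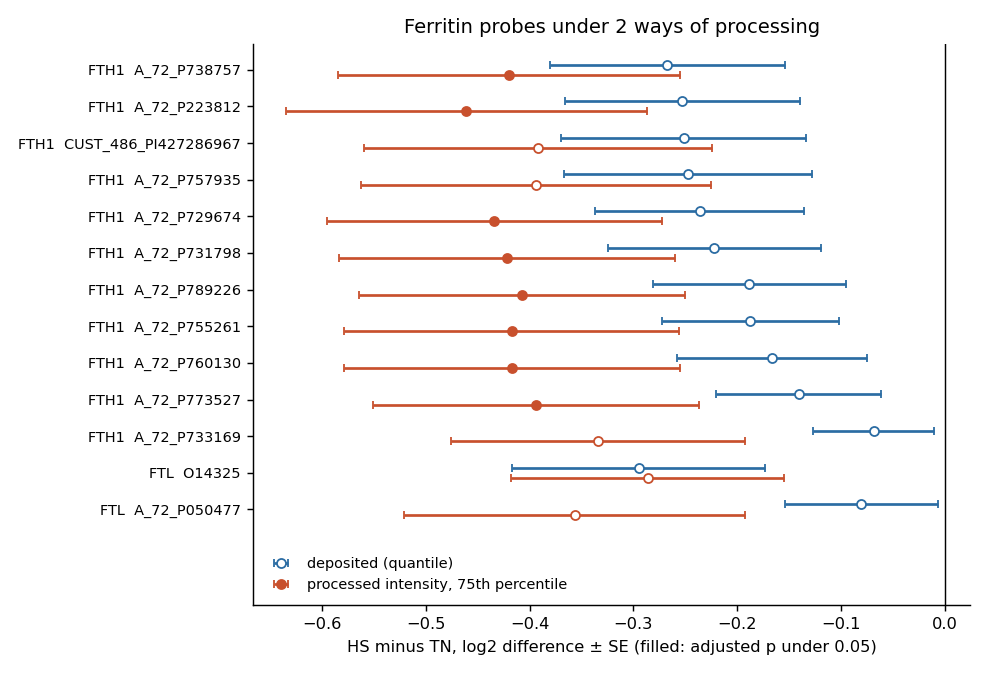
HS minus TN difference (log2, with SE) of the 11 FTH1 and 2 FTL probes in the deposited quantile-normalized values (blue) and in the processed intensity scaled to the 75th percentile of each array (red), over 17 TN and 18 HS pigs. Filled points have an adjusted p under 0.05: 0 of the 11 FTH1 probes in blue and 8 in red.

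SLC11A1 (NRAMP1), the iron and manganese transporter of the phagosome in macrophages and neutrophils, was higher in HS pigs. In CR TN pigs its lead probe read 8.09, 8.70, 9.02, 9.09 and 9.29, and in CR HS pigs 9.02 (lowest), 9.27 (median) and 9.92 (highest). In F1 pigs the values ran from 8.47 through 8.57 to 9.66 in TN and from 8.13 through 9.13 to 9.87 in HS. In LW pigs they ran from 8.07 through 8.74 to 9.24 in TN and from 8.19 through 8.99 to 9.63 in HS. TN and HS pigs overlapped in each breed, with the least overlap in CR, and 16 of 18 HS pigs lay above the TN mean of their breed. SLC11A1 rose by 0.41 (SE 0.15, adjusted p = 0.0373) by its lead probe and by 0.28 (SE 0.09, adjusted p = 0.0210, limma) by O4480. The remaining probe, A_72_P708676, differed by 0.22 (adjusted p = 0.128), and it correlated with the lead probe at r = 0.38 against r = 0.82 for O4480. Leaving out 1 pig at a time, the lead probe stayed between 0.35 and 0.47, and it missed the threshold for 11 of the 35 pigs. Of 9 monocyte markers in the table, 2 were higher and 0 lower in HS pigs, a share near the 22.7% of gene symbols whose lead rows were higher, and their median difference was 0.05 beside 0.06 over all symbols. The 2 were CSF1R (0.51, adjusted p = 0.00159) and VCAN (0.48, adjusted p = 0.0228, limma). The part of monocyte genes in the SLC11A1 result was not tested.

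HMOX1, the inducible haem oxygenase, which opens the haem ring and frees its iron, did not pass the threshold in HS against TN. Its lead probe differed by 0.29 (SE 0.15, adjusted p = 0.122, limma), and its 4 probes by 0.07 to 0.29. HMOX1 had its highest mean in CR pigs of both climates, and these were the largest breed differences among the members. In CR TN pigs it read 8.70, 8.84, 8.97, 9.68 and 9.84. In LW TN pigs it ran from 8.24 through 8.65 to 8.95. In CR HS pigs it ran from 8.47 through 9.39 to 9.96 and in LW HS pigs from 7.99 through 8.89 to 9.40. The breeds overlapped in both climates. CR minus LW was 0.55 for the lead probe (SE 0.18, adjusted p = 0.166, limma) and 0.32 to 0.55 over the 4 probes (adjusted p 0.123 to 0.218), which correlated at 0.85 to 0.95. Of the alternatives run for this contrast, leaving out CR HS replicate 4 was the only one in which a member probe passed (1 probe). The share of all rows that passed in that fit is not given.

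ACO1, which is cytosolic aconitase when it holds an iron-sulfur cluster and IRP1 when it does not, gave opposite readings from its 2 probes. In CR TN pigs the lead probe A_72_P229892 read 7.24, 7.37, 7.50, 7.52 and 7.59, and in CR HS pigs 7.53 (lowest), 8.11 (median) and 8.28 (highest). In F1 pigs it ran from 6.62 through 7.29 to 7.74 in TN and from 7.37 through 7.71 to 8.16 in HS. In LW pigs it ran from 7.31 through 7.38 to 7.54 in TN and from 7.21 through 7.65 to 8.07 in HS. Nearly all HS pigs (17 of 18) lay above the TN mean of their breed. The lead probe rose by 0.41 (SE 0.09, adjusted p = 0.00201, limma), and this held with each pig left out in turn (0.37 to 0.44). It was above 0 on each of the 5 slides (0.22 to 0.55), but the values within slides are not corrected for breed. On slide 5, 1 CR and 1 F1 pig under HS stood against 2 LW pigs under TN, so climate and breed cannot be told apart there.

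The second ACO1 probe, O8033, fell by 0.26 (SE 0.09, adjusted p = 0.0305, limma). In F1 pigs it ran from 6.22 through 6.68 to 6.79 in TN and from 5.59 through 6.08 to 6.52 in HS. Its CR means were 6.36 ± 0.25 (TN, n = 5) and 6.12 ± 0.33 (HS, n = 6), and its LW means 6.27 ± 0.24 and 6.26 ± 0.18 (SD, n = 6). Over the 35 pigs both ACO1 probes correlated negatively (r = -0.56, and -0.36 within groups). The mean of both probes differed by 0.08 (adjusted p = 0.295, limma), so no direction is given for ACO1 as a gene.

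**Figure D4:**
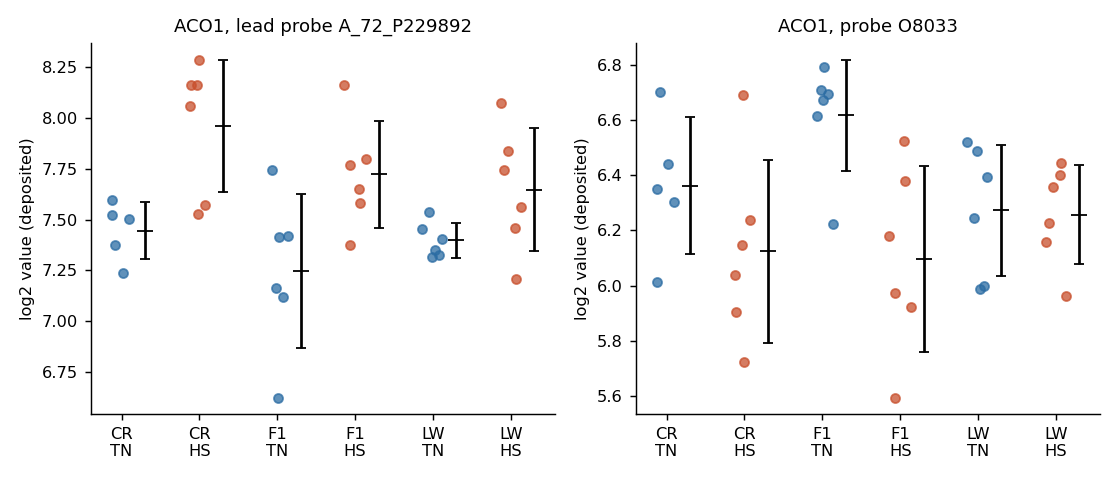
Deposited log2 values of both ACO1 probes for each pig (points; blue TN, red HS), with the mean and SD of each group beside them; the panels have separate vertical scales. HS minus TN was 0.41 for the lead probe and -0.26 for O8033.

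IREB2 encodes IRP2, which is removed from the cell when iron is plentiful. Its 4 probes differed between HS and TN by 0.01 to 0.16, and 0 passed the threshold (adjusted p 0.0835 to 0.938, limma). The lead probe had group means from 7.17 ± 0.45 (F1 TN) to 7.32 ± 0.31 (CR HS, SD, n = 6) and a 95% interval of -0.22 to 0.24. Its sign turned with 10 of the 35 pigs left out. The probes fell into pairs that correlated well within the pair (r = 0.92 for the lead probe and O11170, 0.71 for A_72_P118121 and A_72_P565069) and less across (0.30 to 0.42).

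Within breeds, 1 member probe was higher and 2 were lower in F1 pigs, where 20.8% and 17.9% of all rows were. These were ACO1 A_72_P229892 (0.48, adjusted p = 0.0180), ACO1 O8033 (-0.52, adjusted p = 0.00820) and FTL O14325 (-0.68, adjusted p = 0.00814, limma). O14325 lies on the strand opposite to the FTL lead probe, so it is not given as a reading of FTL mRNA. The FTL lead probe did not pass in F1 pigs (-0.17, adjusted p = 0.292, limma). The F1 TN arrays were those with the lowest 75th percentile of signal, and its part in the F1 calls was not tested. In CR pigs and in LW pigs, 0 member probes passed, and 0% of all rows did in either breed, although 3466 and 3404 rows had an unadjusted p under 0.05. With array weights, 1 member probe was higher in HS than in TN pigs of the CR breed. The share of all rows in CR pigs with array weights is not given, so this call is not read as a result about the members. The TFRC lead probe differed by -1.19 in CR, -0.94 in F1 and -1.23 in LW pigs (adjusted p 0.629, 0.323 and 0.612, limma). The interaction of breed and climate was past the threshold for 0 member probes and 0% of all rows, with 5807 rows at an unadjusted p under 0.05, so a difference between breeds in the response of these genes was not shown. For the contrasts between breeds, 0 member probes passed in CR minus LW (1.08% of all rows), F1 minus CR (0.184%) and F1 minus LW (0.0256%). Without F1 pigs, 0 member probes and 0 of all rows passed for HS against TN, with 0.38 for the ACO1 lead probe (adjusted p = 0.185), 0.44 for SLC11A1 (adjusted p = 0.231) and -1.21 for TFRC (adjusted p = 0.233, limma).

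The pattern of TFRC over the 35 pigs was close to that of a few other genes. By Pearson correlation with the lead probes of 8592 gene symbols, the most alike were CPOX (r = 0.95), an enzyme of haem synthesis, the mitotic kinases CDK1 (0.94) and PBK (0.92), CDO1 (0.91), a cysteine dioxygenase, and PLEK2 (0.91), a pleckstrin of red cell precursors. Taken as deviations from the group means, so that breed and climate have no part, the correlations were 0.91 to 0.96. For IREB2 the most alike were COQ5 (r = 0.92), ZNF146 (0.91), PCM1 (0.90), YME1L1 (0.89) and DOCK11 (0.89). For SLC11A1 they were GALK1 (0.85), NACC2 (0.83), VCAN (0.79), C2 (0.77) and FCN1 (0.76), of which VCAN and FCN1 are monocyte genes. For SLC11A2 they were PDE7A (0.82), IMMP2L (0.81), CD3D (0.81), a chain of the T-cell receptor complex, KLF13 (0.80) and CTDSP2 (0.80). FTH1 was less closely matched, with BLVRB first (0.65). All these values share the arrays and their normalization.

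Among the members, 45 pairs were compared within groups (9 lead probes and the mean of the 15 erythroid genes, n = 35 pigs, permutation of pigs within groups, two-sided). Both Pearson's r and Spearman's rho passed an adjusted p of 0.05 in 4 pairs. TFRC followed the erythroid mean (r = 0.71, rho = 0.72, both with permutation p = 1e-05, the smallest that 100000 permutations can give, adjusted p = 0.00045). TFRC also followed IREB2 (r = 0.67, rho = 0.62, adjusted p = 0.00337 and 0.00795, permutation test). SLC11A1 ran against IREB2 (r = -0.56, rho = -0.61, adjusted p = 0.0178 and 0.00795) and against SLC11A2 (r = -0.51, rho = -0.57, adjusted p = 0.0283 and 0.0120, permutation test). Without the 2 pigs farthest from the median of 1 gene of the pair, these r were 0.63, 0.56, -0.48 and -0.56. That gene was TFRC for the erythroid pair, IREB2 for both of its pairs and SLC11A1 for the last. For TFRC with IREB2, the pigs left out were thus not picked by their TFRC values. Each relation rests on 1 lead probe per gene. The IREB2 lead probe correlated at 0.92 with O11170, but at 0.30 with A_72_P118121 and 0.35 with A_72_P565069. The SLC11A2 lead probe correlated at 0.70 with A_72_P442096 and at 0.36 with the dim probe A_72_P678294. The relations were not tested with these other probes.

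**Figure D5:**
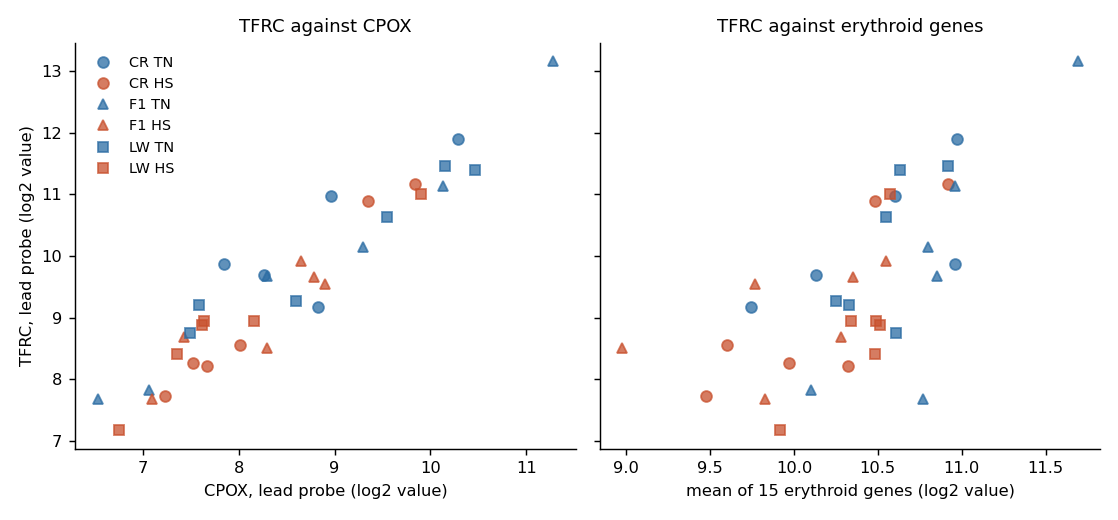
TFRC lead probe (log2) against the CPOX lead probe (left, log2) and against the mean of 15 erythroid genes (right, log2) for the 35 pigs (colour, climate; shape, breed). Points follow a line closely for CPOX (r = 0.95) and more loosely for the erythroid mean, with a single F1 TN pig at 13.16 at the top.

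The other iron genes were read through 5 lists, of which 42 genes had a lead probe in the table. These lists were chosen with earlier results of these data known, so their counts beside the shares of all symbols are a description and not a test. In HS against TN, 5 were higher, 8 were lower and 29 did not pass, whereas 22.7% of the lead rows of 8601 gene symbols were higher and 16.8% lower. Among 8 plasma carriers and scavengers, TF, transferrin itself, fell by 0.60 (adjusted p = 0.00392) and the others did not pass. Among 11 transporters of iron and haem, MCOLN1, a channel that releases iron from lysosomes, rose by 0.26 (adjusted p = 0.00606, limma). In the list of 6 genes of iron chaperones, ferritin turnover and haem breakdown, 2 were higher and 2 lower. NCOA4, the receptor that delivers ferritin to the lysosome, fell by 1.11 (SE 0.28, adjusted p = 0.00417), and BLVRB, a biliverdin reductase abundant in red cells, by 0.80 (SE 0.25, adjusted p = 0.0141, limma). HMOX2, the constitutive haem oxygenase, rose by 0.37 (SE 0.11, adjusted p = 0.0112), and BLVRA, the second biliverdin reductase, by 0.34 (SE 0.13, adjusted p = 0.0352, limma).

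Of 9 regulators, 1 was higher and 3 were lower in HS pigs. NFE2L2, the NRF2 factor that drives HMOX1 and ferritin genes, fell by 0.43 (SE 0.09, adjusted p = 0.00193), HFE2, hemojuvelin, by 0.51 (SE 0.14, adjusted p = 0.00744), and HAMP, hepcidin, the hormone that closes iron export, by 0.43 (SE 0.12, adjusted p = 0.00828, limma). BMPR2, a receptor of the pathway that switches hepcidin on, rose by 0.24 (SE 0.08, adjusted p = 0.0146). Of 8 genes of iron-sulfur cluster assembly, 1 was higher and 2 were lower. BOLA3 fell by 0.80 (adjusted p = 0.00221), while NUBP1 rose by 0.36 (adjusted p = 0.00456, limma). The list medians were -0.23 for carriers, 0.05 for transporters, 0.13 for chaperones and turnover, -0.10 for regulators and -0.10 for iron-sulfur assembly, beside 0.06 over the lead rows of all symbols.

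Of the 15 red cell genes, 6 were lower, 1 was higher and 8 did not pass. ALAS2, the first enzyme of haem synthesis in red cells, fell by 0.74 (SE 0.19, adjusted p = 0.00403), and HEMGN, a nuclear protein of red cell precursors, by 1.25 (SE 0.32, adjusted p = 0.00477, limma). SLC4A1, the band 3 anion exchanger, rose by 0.27 (SE 0.10, adjusted p = 0.0386). HBB, a globin chain, was bright (mean 17.4) and differed by -0.13 (adjusted p = 0.243). The mean of the 15 erythroid genes was 10.86 ± 0.51 in F1 TN and 9.96 ± 0.57 in F1 HS pigs (SD, n = 6). In CR pigs it was 10.48 ± 0.54 (n = 5) and 10.13 ± 0.55, and in LW pigs 10.55 ± 0.24 and 10.38 ± 0.24 (n = 6). The median difference of the FTH1 probes was -0.35 in F1, -0.15 in LW and -0.10 in CR pigs.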

How the data were processed

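Whole blood RNA of 35 pigs was hybridized to one-colour arrays, 1 per pig, on 5 slides. Per the file headers, spots were read with Agilent Feature Extraction 10.10.1.1. Raw median intensity, local background and a processed intensity were deposited for every spot, none of them normalized between arrays. The authors deposited a table of log2 values, obtained by quantile normalization of the median intensity and a filter whose rule is not stated. Recomputed quantile values had r = 0.99997 with it (largest difference 0.322). Well above background were 55.2% to 68.0% of the spots of an array, the 75th percentile of processed intensity was 112 to 329, and 0 member spots were saturated or marked as outliers.

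Tests were two-sided limma 3.58.1 fits (lmFit, eBayes; R 4.3.3) on the deposited log2 values with a threshold of 0.05, additive in breed and climate, or on the 6 group means for effects within breeds and interaction. The study's random effects (pen, day of slaughter, father, mother) have no labels and could not be fitted. The number of arrays limits the precision.

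A gene was read by its lead probe. Other iron genes were named where past the threshold, up to 4 per list by smallest p, beside defining markers of red cells and monocytes. One gene that met this rule is not reported here. The 5 genes most alike were taken by Pearson correlation. Members and lists were chosen with earlier results of these data known. Alternatives were own normalization and filters, the processed intensity scaled to the 75th percentile, normexp with an offset of 50, slide as a block, array weights, an erythroid covariate, the mean of a gene's probes, and leaving out F1 pigs or single pigs. Permutations used scipy 1.17.1. No genome was used, so no coordinates are given.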

Additional observations from a re-analysis of the deposited data

Results flagged for a closer look

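Of 54 groups of lead probe values (9 genes in 6 groups), 2 held a pig that stood apart from the rest of its group by Dixon's criterion, a rule that chance meets in about 1 of 20 groups. For FTH1, 1 LW TN pig read 18.19, against 18.41 to 18.54 in the other LW TN pigs. For HMOX1, 1 F1 TN pig read 9.25, against 8.33 to 8.63 in the other F1 TN pigs.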

How the results depend on the processing

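Of the 33 member probes, 3 were higher and 2 lower in HS pigs. Lower calls numbered 11 with the processed intensity scaled to the 75th percentile, 4 with slide as a fixed term and 1 with own quantile values and no filter, where TFRC (adjusted p = 0.0631) and SLC11A1 (adjusted p = 0.0532, limma) missed the threshold. Of all 39072 rows, 14023 passed with the 75th percentile (7609 higher) and 14429 with slide as a fixed term (8415 higher). Without a filter 12795 of 60305 passed (7338 higher). With array weights there were 5 higher and 7 lower, HMOX1 passed (0.34, adjusted p = 0.0382, limma) and 1 probe was higher in HS than in TN pigs of the CR breed. In the array weight fit of HS against TN, 17120 of all rows passed, 10237 of them higher. With the erythroid covariate, or without F1 pigs, 0 were higher and 0 lower, and 1 and 0 of all rows passed. In F1 pigs (1 higher, 2 lower), 14 were lower with the processed intensity scaled to the 75th percentile, 4 with slide as a random block, and 0 were higher and 1 lower with array weights. The shares of all rows in F1 pigs under these settings, and in CR pigs with array weights, are not given. These counts therefore cannot be set beside them. Without 1 pig at a time, higher calls ranged from 2 to 4 and lower calls from 0 (without F1 HS replicate 5) to 6 (without F1 HS replicate 1 or CR HS replicate 1). In F1 pigs they ranged from 0 to 2 and from 2 to 9, in CR minus LW from 0 to 1 higher, and in the other contrasts they stayed at 0. The shares of all rows in F1 pigs and in CR minus LW without single pigs are not given. Those counts are therefore not read as results about the members.

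The ACO1 lead probe missed the threshold with the erythroid covariate (0.31, adjusted p = 0.0892), and SLC11A1 did too (0.51, adjusted p = 0.0990, limma). Signs turned in values near 0. With the erythroid covariate the lead probes were at 0.0102 for FTH1, 0.0321 for FTL, -0.0356 for SLC11A2 and 0.0441 for STEAP3. In that fit 10 of the 11 FTH1 probes stayed below 0. Without F1 pigs SLC11A2 was at -0.0483, IREB2 at -0.00951 and STEAP3 at 0.0485. STEAP3 was at 0.0079 with own quantile values under each filter and at 0.00998 with array weights. Without 1 pig at a time, IREB2 ranged from -0.0245 to 0.0571 and STEAP3 from -0.0224 to 0.0212. The causes were not tested. Within slides, with no correction for breed, TFRC ran from -2.19 to -0.20 and SLC11A1 from 0.02 to 0.75. TN and HS pigs were different animals and the labels do not give littermates, so no paired analysis was possible. The labels number no replicates, and the replicate numbers used here follow the order of the samples within each group.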

Other observations

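Genes of other blood cells were counted in the same fit of HS against TN. Over the lead rows of 8601 gene symbols, 22.7% were higher and 16.8% lower, with a median difference of 0.06. The lists are short, and their counts were not tested against these shares. Of 8 neutrophil genes in the table, 0 were higher and 1 was lower, with a median difference of -0.47. Of 7 T-cell genes, 2 were higher and 0 lower (median 0.15), and of 5 B-cell genes, 2 were higher and 0 lower (median 0.28). Of 4 platelet genes, 0 passed the threshold (median 0.21). LTF, lactoferrin, an iron-binding protein of neutrophil granules that also stands in the neutrophil list, differed by -0.54 (SE 0.57, adjusted p = 0.465, limma).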
